A study of Danio rerio with 6 samples.

Results

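Glycolysis turns glucose into pyruvate in the cytosol and yields ATP without oxygen. Hexokinase traps glucose as a phosphate ester, aldolase splits the sugar, and the steps from glyceraldehyde phosphate to pyruvate return ATP. The last step belongs to pyruvate kinase. In mammals the PKLR gene encodes the forms of red cells and liver, and PKM those of most other tissues, and mature red cells of mammals depend on this path for their ATP.

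The genes described here are 10 glycolysis genes, with a contrast of pklr and pkma. They were listed by name, with earlier results of these data known. They were looked up in the name table of the Ensembl gene IDs by zebrafish symbol or, where that was not listed, by its capitals with any paralog letter dropped, and every ID under a symbol was kept. Of the 10 symbols 9 were found, and they gave 14 of the 32520 gene IDs. GPI, ALDOA, TPI1, ENO1 and PKM each name 2 IDs, so the a and b paralogs of these genes cannot be told apart by name. No ID is listed as pgk1 or PGK1. 1 ID is listed as PGK2, while the RefSeq gene table has 1 zebrafish pgk1 and 0 genes named pgk2, and its values are given apart from the members. The table calls pgam1a by its zebrafish name and the other members by capital symbols, which are used below. No coordinates are given, since the available gene table is of another build than the counts.

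The counted RNA is from zebrafish embryos aged 20 h, from blood progenitors that carried RFP and were sorted after the embryos were digested with Liberase, 30000 cells to a library. There were 3 control libraries and 3 of genotype blf-/-;drl 4KO, called the mutants below. The controls are blf-/- in the sample genotype field and blf+/- in the series design, so whether they share the loss of blf with the other group is not settled by the labels. In both groups the RFP that defines the sorted cells comes from a gene-trap allele of blf itself, and the sources used here do not give the number of embryos behind a library.

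Total counts ranged from 12751618 to 18101975 per library. Markers fixed for blood were present in the controls, with GATA-binding gata1a at 468 to 496 CPM, TAL1 at 494 to 518 CPM and LMO2 at 1250 to 1452 CPM (CPM are reads scaled to a common library size with TMM factors). The definitive stem cell marker RUNX1 was at 0 to 0.222 CPM in the controls and at 0 to 0.132 CPM in the mutants. The red cell marker list was lower in every mutant library, at 11677 to 15732 against 94031 to 121726 summed CPM. Of its 11 tested genes edgeR called 10 lower and 0 higher, beside 9.92% lower and 13.0% higher among all genes tested. The blood progenitor list was lower too, and the lists of the other 5 cell types were higher. The labels do not say that replicates came from separate clutches, so p-values measure the spread between these libraries only.

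Most of the tested glycolysis members were higher in the mutant cells and no tested member was lower. Of the 14 IDs 12 passed the filter on low counts and were tested, of which 8 were past the threshold as higher, 0 as lower, and 4 did not pass (edgeR quasi-likelihood test, Benjamini-Hochberg adjusted p below 0.05 over 14517 genes). At an unadjusted p under 0.05, 0 members were lower as well, and DESeq2 and limma-voom also called 0 lower. No share of all genes is given here for any count at an unadjusted p, so such counts have no background beside them. Among all genes tested, 13.0% were called higher and 9.92% lower. The members were chosen with earlier results of these data known. The distance of their counts from the shares of all genes therefore describes this list and is no test of it. With DESeq2 9 members were higher, beside 17.9% of its genes (14.3% lower), and with limma-voom 8, beside 14.7% (11.4% lower). With library totals in place of TMM factors the calls over all genes moved from 1887 higher and 1440 lower to 2402 higher (16.5%) and 959 lower (6.61%), and the members from 8 to 9 higher. The member added with DESeq2 and with library totals was PKM ENSDARG00000099860, which met the filter on low counts with the help of mutant libraries. All 12 tested members had a fold change above 0 under each of the settings tried. Their median log2 fold change was 1.81, beside 0.11 for all genes tested. Of the 12, 10 had no overlap between the groups, where 22.7% of all genes tested had none in that direction. Among the 10 members with a mean of at least 5 CPM 8 were higher, beside 17.4% of all tested genes at that level. The 8 members that were called had at least 10 reads in every control library, so none of them entered the test through the mutant libraries alone. Of the 4 that did not pass, ENO1 ENSDARG00000013750 and PKM ENSDARG00000099860 had 10 or more reads in only 1 control library each. They met the filter on low counts with the help of mutant libraries, and the values over all 12 include them. The 10 members with a mean of at least 5 CPM leave them out, with a median log2 fold change of 1.67. That median was 0.07 for all tested genes at that level. GPI ENSDARG00000103826, with fewer reads in the mutants, was not tested. Without control replicate 2, the count of members called higher was 5, where 8.32% of all genes were called higher.

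**Figure D1:**
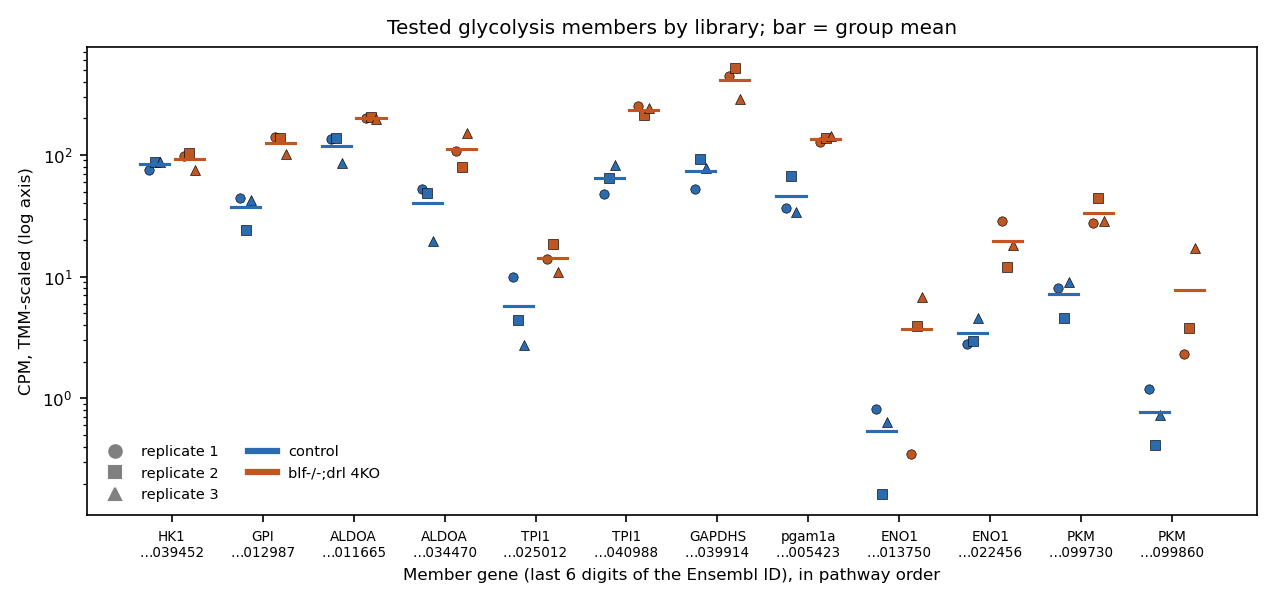
CPM (TMM-scaled, log axis) of the 12 tested members in each library, with a bar at the mean of each group of 3 libraries. For 10 of the 12 genes every mutant library lies above every control library, while HK1 and ENO1 ENSDARG00000013750 overlap. CPM are not divided by gene length, so heights of different genes are not comparable.

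At the entry of the path, hexokinase showed little difference. HK1 (ENSDARG00000039452), which phosphorylates glucose, was at 75.7, 87.7 and 87.6 CPM in control replicates 1, 2 and 3, against 97.0, 104 and 74.9 CPM in mutant replicates 1, 2 and 3. The groups overlapped, and mutant replicate 3 was below every control. Its fitted log2 difference was 0.14 (SE 0.24, edgeR adjusted p = 0.72), and this ranged from 0.011 to 0.46 over the alternative settings.

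The next step, the turn of glucose phosphate into fructose phosphate by GPI, was higher. GPI ENSDARG00000012987 was at 44.1, 24.2 and 42.8 CPM in the controls and at 140.4, 136.9 and 101.6 CPM in the mutants. All 3 of the latter were far above the highest control, and the log2 fold change was 1.77 (SE 0.30, adjusted p = 0.00187). The remaining GPI ID, ENSDARG00000103826, had 8, 5 and 3 reads in the controls and 1, 0 and 3 reads in the mutants and was not tested. Summed and scaled, its reads were 5.76-fold lower (95% exact binomial interval 1.86 to 23.7, which covers counting error only). It held 1.21% ± 0.532 of GPI reads in the controls and 0.0767% ± 0.103 in the mutants (SD, n = 3 each).

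Aldolase, which splits the sugar bisphosphate, was represented by a pair of IDs, and both were higher. ALDOA ENSDARG00000011665 was at 135, 137 and 85.5 CPM in the controls and at 201, 204 and 197 CPM in the mutants. The groups did not overlap, yet the difference was the smallest among the called members, with a log2 fold change of 0.75 (SE 0.22, adjusted p = 0.0319). It lost its call when any 1 of the 6 libraries was left out, at adjusted p = 0.056 to 0.157. ALDOA ENSDARG00000034470 was at 52.3, 49.0 and 19.5 CPM in the controls and at 108, 79.6 and 149.9 CPM in the mutants (log2 fold change 1.48, SE 0.39, adjusted p = 0.0184). Its call was lost without control replicate 2 (adjusted p = 0.0506), control replicate 3 (0.0515) or mutant replicate 3 (0.0721). The skeletal muscle marker list ordered the 6 libraries exactly as this ID did, at 930, 723 and 275 summed CPM in the controls and 3257, 1506 and 5029 in the mutants. The genes listed as the muscle forms of enolase and mutase followed that order only in part. ENO3 did so in the controls but was at 134, 101 and 88.3 CPM in the mutants. PGAM2 did so in the mutants but was at 12.7, 3.55 and 5.73 CPM in the controls. The part of muscle RNA in the aldolase difference was not tested.

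Triose phosphate isomerase, which makes both products of the split usable, was higher at its more abundantly read ID. TPI1 ENSDARG00000040988 was at 48.1, 64.2 and 82.7 CPM in the controls and at 253, 213 and 241 CPM in the mutants. Every mutant value was far above the highest control, with a 3.62-fold higher mean, a log2 fold change of 1.86 (SE 0.24, adjusted p = 0.000291), and the call held under all 14 alternative settings. TPI1 ENSDARG00000025012 was at 9.99, 4.37 and 2.73 CPM in the controls and at 13.8, 18.4 and 10.8 CPM in the mutants. Its groups did not overlap either, but the control spread was wide and it did not pass (log2 fold change 1.33, SE 0.75, adjusted p = 0.233).

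The difference with the smallest adjusted p among the members was at glyceraldehyde phosphate dehydrogenase, the step that yields NADH. GAPDHS (ENSDARG00000039914), a symbol that in mammals names the sperm enzyme, was at 52.0, 91.7 and 78.4 CPM in the controls and at 443, 514 and 288 CPM in the mutants. That is 74.0 ± 20.2 against 415 ± 116 CPM (SD, n = 3 each), a 5.61-fold higher mean, with a log2 fold change of 2.49 (SE 0.27, adjusted p = 9.96e-05). Its call held under all 14 alternative settings. GAPDH (ENSDARG00000043457), the partner gene outside the member list, was at 119.6, 94.9 and 73.0 CPM in the controls and at 362, 239.8 and 249.9 CPM in the mutants (log2 fold change 1.57, SE 0.25, adjusted p = 0.00111). Within libraries, the log2 ratio of GAPDHS to GAPDH reads was -1.20, -0.05 and 0.10 in the controls and 0.29, 1.1 and 0.21 in the mutants. The groups did not overlap, and the two-sided exact permutation p was 0.1, which is the smallest that 3 against 3 libraries can give.

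The ID listed as PGK2 (ENSDARG00000054191), for the kinase that makes the first ATP of the path, was at 6.81, 42.0 and 11.5 CPM in the controls and at 38.4, 23.7 and 57.2 CPM in the mutants. Control replicate 2 lay among the mutant values, and the gene did not pass (log2 fold change 0.99, SE 0.64, adjusted p = 0.301). Without control replicate 2 it was at adjusted p = 0.0446. This gene was added after the name table was seen.

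Phosphoglycerate mutase, which moves the phosphate of phosphoglycerate, was higher. pgam1a (ENSDARG00000005423) was at 36.3, 66.5 and 33.8 CPM in the controls and at 128, 137 and 142 CPM in the mutants, where its values lay close together. The log2 fold change was 1.57 (SE 0.30, adjusted p = 0.00344), held under all 14 alternative settings.

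Enolase, which makes phosphoenolpyruvate, had few reads at both of its member IDs. ENO1 ENSDARG00000022456 had 38, 36 and 50 reads in the controls, or 2.81, 2.97 and 4.55 CPM, and 574, 213 and 278 reads in the mutants, or 28.9, 12.1 and 18.3 CPM. The groups were well apart, and the log2 fold change was 2.52 (SE 0.70, adjusted p = 0.0234). The call was lost without control replicate 1 (adjusted p = 0.0723), control replicate 2 (0.0718) or mutant replicate 1 (0.106). ENO1 ENSDARG00000013750 had 11, 2 and 7 reads in the controls and 7, 70 and 104 reads in the mutants. mutant replicate 1 was within the control range, and the gene did not pass (log2 fold change 2.77, SE 1.23, adjusted p = 0.132).

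Pyruvate kinase closes the path. PKM ENSDARG00000099730 had 109, 55 and 100 reads in the controls, or 8.07, 4.54 and 9.10 CPM, and 551, 781 and 430 reads in the mutants, or 27.7, 44.2 and 28.4 CPM. The groups were well apart, with a 4.62-fold higher mean. The log2 fold change was 2.21 (SE 0.52, adjusted p = 0.0113), and the call was lost without mutant replicate 2 (adjusted p = 0.0568). PKM ENSDARG00000099860 had 16, 5 and 8 reads in the controls and 46, 67 and 260 reads in the mutants. The groups did not overlap, but mutant replicate 3 stood far above the other two, and the gene did not pass (log2 fold change 3.30, SE 1.16, adjusted p = 0.0615). It was past the threshold with library totals (adjusted p = 0.0481) and with DESeq2 (0.00656). This ID held 12.8%, 8.33% and 7.41% of PKM reads in the controls and 7.71%, 7.90% and 37.7% in the mutants. Only 1 of its 3 control libraries had 10 or more reads.

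PKLR, the red cell and liver gene of mammals, was close to the floor of detection in the controls, where red cell genes were highest. PKLR (ENSDARG00000042010) had 3, 1 and 1 reads in control replicates 1, 2 and 3, that is 0.222, 0.0825 and 0.0910 CPM. In the same libraries hemoglobin genes took 17.6%, 19.8% and 19.4% of the counts. PKM ENSDARG00000099730 had 109, 55 and 100 reads there, with gene length not taken into account. In the mutant libraries PKLR had 69, 71 and 2 reads, or 3.47, 4.02 and 0.132 CPM, while hemoglobin genes took 3.71%, 4.29% and 5.41%. Replicates 1 and 2 were above every control, and replicate 3 was within the control range. PKLR did not pass the filter on low counts. The 142 summed reads against 5 gave a scaled ratio of 19.7 (95% exact binomial interval 8.25 to 61.6, counting error only), which rests on replicates 1 and 2. With no filter, edgeR gave a log2 fold change of 4.41 (SE 1.46, adjusted p = 0.0625). With 1 library left out it passed the filter in 4 cases, and was at adjusted p = 0.0194 without mutant replicate 3 and at 0.11 to 0.162 without control replicate 1, 2 or 3. In these 4 cases PKLR met the filter through mutant replicates 1 and 2 alone, the only libraries with 10 or more reads. The fit without mutant replicate 3 also leaves out the mutant library that was within the control range. These p-values therefore lend no support to a difference. With 1 to 3 reads in a control library, a fall of PKLR alongside the red cell markers would not have been detectable at this depth.

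The contrast of PKLR with PKM was read as a ratio within each library, which uses no library scaling factors. Depth and gene length do not cancel fully, because a constant is added to each count. That constant weighs most where reads are as few as those of PKLR in the controls. The log2 ratio of PKLR to PKM ENSDARG00000099730, with 0.5 added to each count, was -4.97, -5.21 and -6.07 in the controls and -2.99, -3.45 and -7.43 in the mutants. The mutant libraries lay on both sides of the controls. The means were -5.41 ± 0.58 and -4.62 ± 2.44 (SD, n = 3 each), a difference of 0.79 with a two-sided exact permutation p of 0.6, where 0.1 is the smallest possible. The difference was 0.19 against PKM ENSDARG00000099860 (exact permutation p = 1) and 0.63 against both IDs summed (exact permutation p = 0.8). It was -0.32 with 5 added to each count. Without mutant replicate 3 it was 2.2, without replicate 1 -0.025 and without replicate 2 0.21, so a change of PKLR relative to PKM was not detectable in these libraries.

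**Figure D2:**
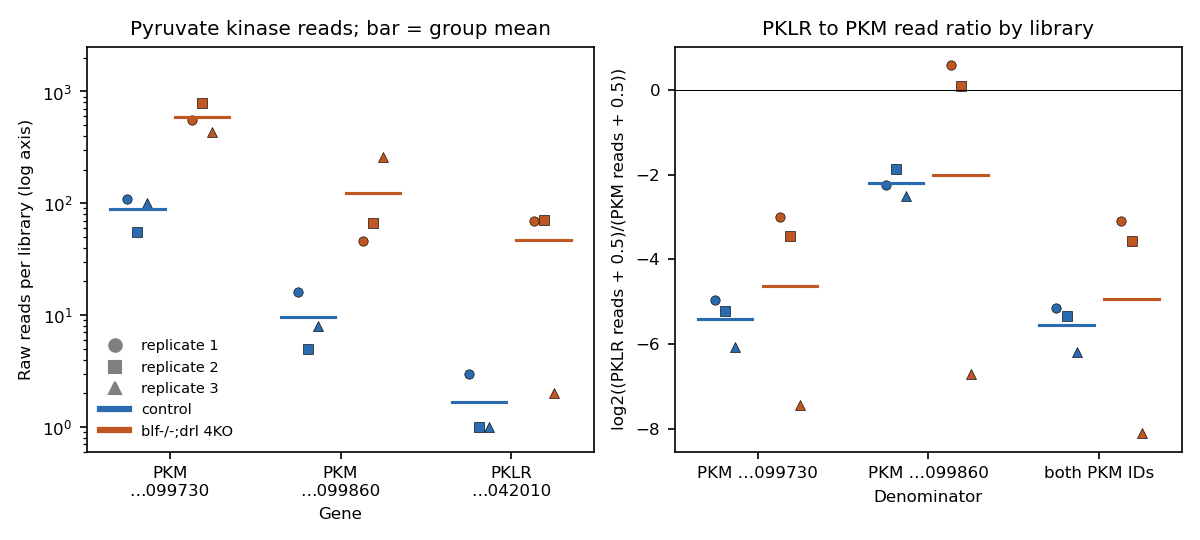
Left, raw reads (log axis) of the pyruvate kinase IDs in each library, with a bar at the group mean. Right, the log2 ratio of PKLR to PKM reads. PKLR has 1 to 3 reads in the controls and 69, 71 and 2 in the mutants, and replicate 3 lies below every control in the ratio.

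The paralogs of a step were compared in the same way, over 7 pairs that were picked after the values were seen. In 4 of them the groups overlapped, with exact permutation p of 0.4 to 1. The other three were at 0.1, the smallest possible (adjusted p = 0.233 over the 7 pairs). These were GAPDHS to GAPDH with a difference of 0.91, ALDOA ENSDARG00000034470 to ENSDARG00000011665 with 0.78, and GPI ENSDARG00000103826 to ENSDARG00000012987 with -4.31, where the numerator has 0 to 8 reads. The sources used here do not say how the authors handled reads that fit both copies of a gene, and paralogs may share reads.

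Of all genes tested by edgeR, 13.0% were higher and 9.92% lower. Outside the members, 14 other glycolysis genes were tested, of which 4 were higher, 0 lower and 10 did not pass (median log2 fold change 1.49). At an unadjusted p under 0.05, and with DESeq2 or limma-voom, 5 of them were higher and 1, PFKM ENSDARG00000014179, lower. Of all its genes DESeq2 called 17.9% higher and 14.3% lower, and limma-voom 14.7% and 11.4%. No such share is given for the counts at an unadjusted p. Besides GAPDH the 4 called by edgeR were ENO3 (27.2 to 108 CPM, log2 fold change 1.98) and PGAM2 (7.31 to 43.2 CPM, 2.56), which in mammals are the muscle forms of enolase and mutase, and PFKP ENSDARG00000028000 (1.36 to 27.8 CPM, 4.34, SE 0.76, adjusted p = 0.00227). This PFKP ID had 30, 16 and 6 reads in the controls and 774, 281 and 434 in the mutants. It met the filter on low counts with the help of mutant libraries, and the count of 4 higher includes it. Phosphofructokinase, the committed step of the path, differed among its IDs. PFKM ENSDARG00000014179 was at 24.0, 5.69 and 20.0 CPM in the controls and at 0.503, 4.70 and 0.990 CPM in the mutants. All 3 mutant values were below all controls. It did not pass (log2 fold change -3.0, SE 1.02, adjusted p = 0.0547), but it was past the threshold with RLE size factors (0.0498), DESeq2 (0.00334), limma-voom (0.0317) and without mutant replicate 2 (0.0205). PFKM ENSDARG00000060797 had 125, 7 and 9 reads in the controls and 67, 194 and 424 in the mutants, and did not pass (log2 fold change 1.98, adjusted p = 0.252). It was at 4.27 (adjusted p = 0.0469) without control replicate 1 and at 1.06 (0.627) without mutant replicate 3. PFKP ENSDARG00000012801 (-0.07, adjusted p = 0.976) did not pass either, and the PFKL IDs were at or below 2.49 CPM in every library and were not tested. The second hexokinase, HK2, was at 40.5, 38.2 and 40.6 CPM against 87.8, 41.4 and 65.4 CPM and did not pass (log2 fold change 0.71, adjusted p = 0.158), and it did with library totals (0.0469).

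**Figure D3:**
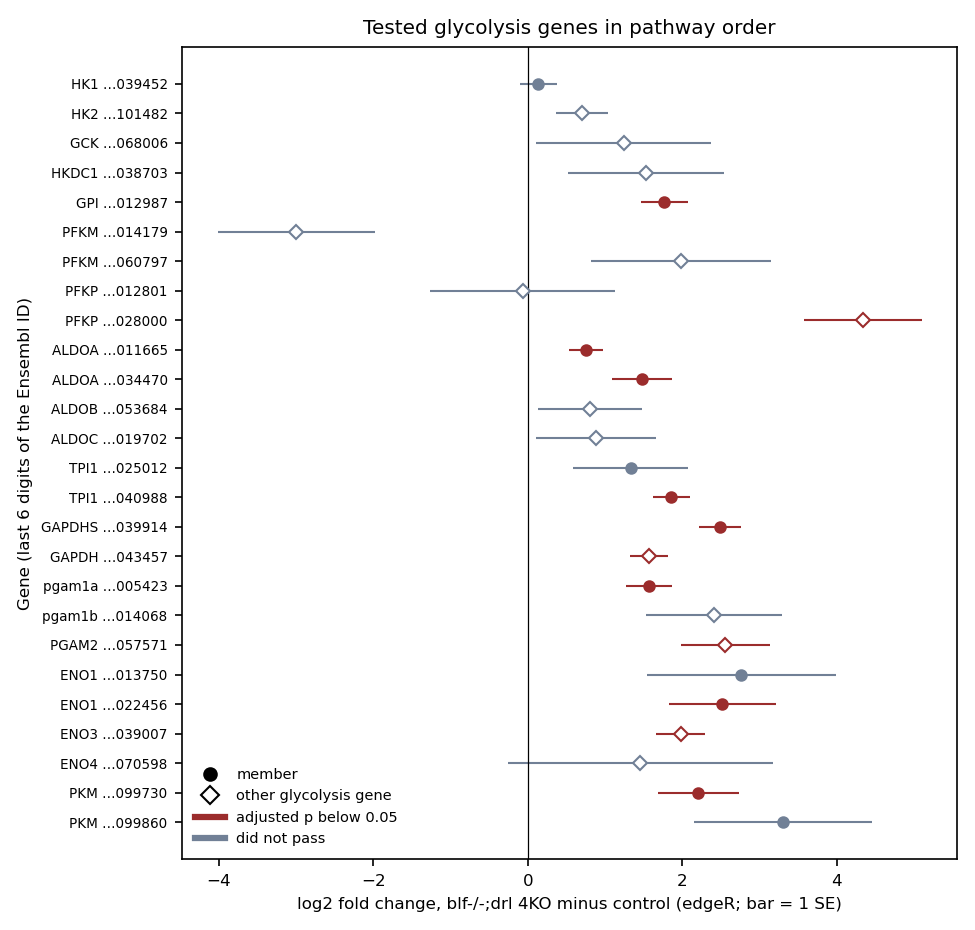
Log2 fold change (mutant minus control, bar of 1 SE) of the 26 tested glycolysis genes in pathway order, members as filled circles and other genes as open diamonds, with red for an adjusted p below 0.05. All 12 called genes lie to the right of 0, and PFKM ENSDARG00000014179 at -3.0 is the gene farthest to the left.

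The genes that bring glucose in and carry pyruvate onward were read from lists of the neighbouring pathways. The edgeR counts of these lists stand beside 13.0% higher and 9.92% lower among all genes tested. Their DESeq2 counts stand beside 17.9% and 14.3%, and no such share is given for their counts at an unadjusted p. Of 9 tested glucose transporter genes 3 were higher and 0 lower, and 0 were lower also at an unadjusted p under 0.05 and with DESeq2. slc2a3b rose from a mean of 14.3 to one of 83.4 CPM (a log2 difference of 2.54, SE 0.34, adjusted p = 0.000383) and SLC2A6, a transporter of lysosomes in mammals, from 20.2 to 108 CPM (2.41, adjusted p = 0.00135), while slc2a11b (3.62, adjusted p = 0.0493) lost its call with RLE size factors, limma-voom and no filter, and without any 1 library other than mutant replicate 2 (0.103 to 0.16). This gene had 8, 4 and 7 reads in the controls and 195, 16 and 133 in the mutants. It met the filter on low counts through the mutant libraries alone, and the count of 3 higher includes it. The SLC2A1 IDs, whose mammalian counterpart carries glucose into red cells, were at 0.182 to 0.592 CPM in the controls and 0.170 to 1.76 CPM in the mutants. The tested one did not pass (ENSDARG00000001437, adjusted p = 0.105). With 7, 3 and 2 reads in the controls and 35, 20 and 10 in the mutants, it too met the filter through the mutants alone.

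Of 16 tested genes of pyruvate and lactate 4 were higher and 0 lower, while DESeq2 called 4 higher and 1 lower and at an unadjusted p under 0.05 there were 4 and 0. LDHA, which turns pyruvate into lactate, was at 46.3, 42.4 and 62.2 CPM in the controls and at 205, 204 and 231 CPM in the mutants (log2 fold change 2.09, SE 0.23, adjusted p = 9.45e-05). LDHB rose from 155 to 328 CPM (1.08, adjusted p = 0.00178), PDHB of pyruvate dehydrogenase from 77.3 to 155 CPM (1.0, adjusted p = 0.0152) and PDK2 ENSDARG00000059054, an inhibitor of that enzyme, from 7.25 to 32.6 CPM (2.17, adjusted p = 0.0353). Without control replicate 2, PDHB was at adjusted p = 0.0717 and PDK2 at 0.125, and without mutant replicate 1 they were at 0.0657 and 0.134. Control replicate 3 also decided PDHB (0.0582 without it), and control replicate 1 and mutant replicate 2 decided PDK2 (0.116 and 0.0626).

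In the pentose phosphate pathway, which makes NADPH from glucose phosphate, 3 of 7 tested genes were higher and 0 lower, with the same counts from DESeq2 and at an unadjusted p under 0.05. PGD rose from a mean of 106 to one of 308 CPM (a log2 difference of 1.54, SE 0.24, adjusted p = 0.00099). TALDO1 (1.16, adjusted p = 0.0426) lost its call with RLE size factors (0.0593) and limma-voom (0.0615), and without any 1 library other than mutant replicate 3 (0.0721 to 0.159). BPGM, which makes the bisphosphoglycerate that tunes oxygen release in mammalian red cells, was at 6.07, 3.05 and 4.82 CPM against 10.4, 33.2 and 3.30 CPM and did not pass (log2 fold change 1.75, adjusted p = 0.187). None of the 8 tested genes in its list of glycolysis regulators passed with edgeR, among them pfkfb4a (1.71, adjusted p = 0.131), which limma-voom did call (0.0475). At an unadjusted p under 0.05, 1 of these 8 was higher and 0 lower, and DESeq2 called 0. Of 3 tested gluconeogenesis genes 1, fbp1a, was higher (3.39, adjusted p = 0.029), at 0.0679 to 0.09 without control replicates 1 or 2 or mutant replicates 1 or 3. With 21, 3 and 29 reads in the controls and 424, 139 and 264 in the mutants, fbp1a met the filter on low counts with the help of mutant libraries.

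The TCA cycle had 3 of 18 tested genes higher and 1 lower, near the 13.0% and 9.92% of all genes tested. Its median log2 fold change was 0.16, beside 0.11 for all genes tested. MDH2 (1.21, adjusted p = 0.00443), IDH3A (1.02, adjusted p = 0.0141) and FH ENSDARG00000109774 (1.97, adjusted p = 0.0414) were higher. The entry enzyme CS fell from 119 to 63.8 CPM (-0.90, adjusted p = 0.0158), but not past the threshold with library totals (0.0803) or no filter (0.125), nor when control replicate 2 or 3 or mutant replicate 2 or 3 was left out (0.0505 to 0.0733). FH lost its call without any 1 of the 6 libraries (0.0704 to 0.105), and IDH3A without control replicate 1 or 3 (0.0618 and 0.0812). Of 12 tested hypoxia regulators, some of which control glycolysis genes in mammals, 2 were higher and 2 lower, again near those shares. EGLN1 ENSDARG00000004632, an oxygen-sensing prolyl hydroxylase, fell from 132 to 37.8 CPM (-1.81, adjusted p = 0.000788) and hif1al2 from 110.2 to 28.1 CPM (-1.97, adjusted p = 0.00241), whereas HIF1A ENSDARG00000034293 rose from 40.6 to 90.1 CPM (1.15, adjusted p = 0.0238) and hif1al from 128 to 212 CPM (0.73, adjusted p = 0.0277). The rises of both were lost without control replicate 1, 2 or 3, at adjusted p = 0.0527 to 0.102, as well as without mutant replicate 1 (HIF1A, 0.11) and replicates 2 and 3 (hif1al, 0.106 and 0.0543).

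**Figure D4:**
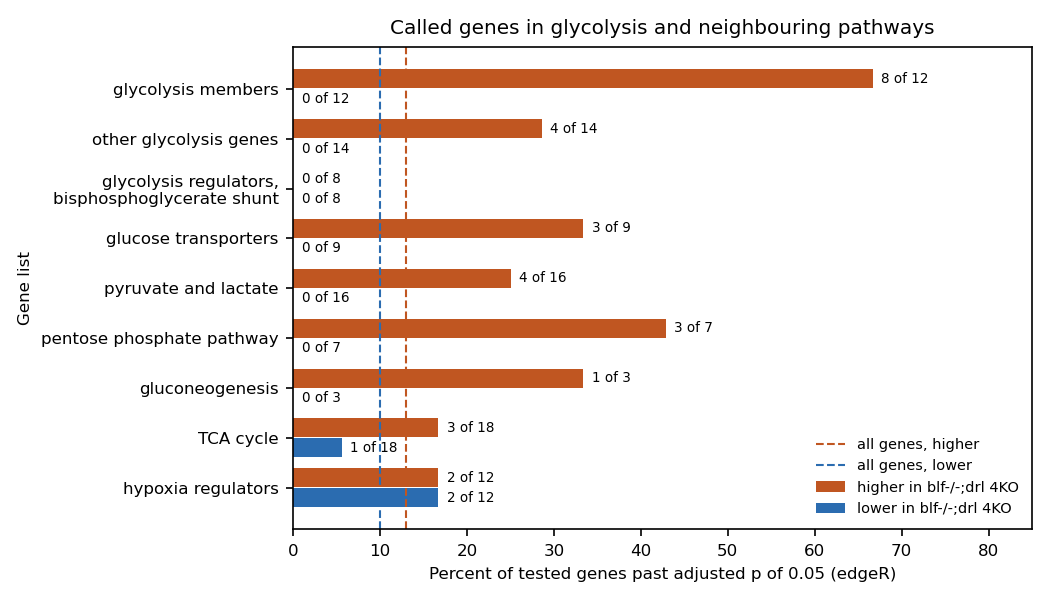
Percent of tested genes past an adjusted p of 0.05 in each list, higher in orange and lower in blue, with the counts beside the bars and dashed lines at 13.0% and 9.92% for all genes tested. The members have 8 of 12 higher and 0 of 12 lower, whereas the TCA cycle has 3 of 18 and 1 of 18.

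The genes nearest in profile were sought among the 2863 tested genes with a mean of at least 50 CPM, by Euclidean distance of mean-centred log2(CPM + 0.5) over the 6 libraries. For PKM ENSDARG00000099730 they were ahnak (distance 0.57), PDIA4 (0.60), krt18b (0.60) and ID3 (0.61). For PKM ENSDARG00000099860 they were RRAS (1.09), FOXP4 (1.32), HES4 (1.44) and CCND2 (1.51). For PKLR they were PTBP1 (1.49), ugt5b2 (1.57), DHRS9 (1.59) and PDCD10 (1.59). The added 0.5 exceeds the CPM of PKLR in every control, so its distances are not comparable with those of PKM. These distances describe 6 libraries of 2 groups and carry no test.

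The marker lists other than those of red cells and blood progenitors moved in the direction of the glycolysis members. Their counts stand beside 13.0% higher and 9.92% lower among all genes tested by edgeR. The shares were 17.9% and 14.3% with DESeq2 and 14.7% and 11.4% with limma-voom, and no such share is given for counts at an unadjusted p. The epidermis list was at 150 to 194 summed CPM in the controls and at 1576 to 2272 in the mutants, with 8 of 9 tested genes higher. Among these, krt5, krt91 and cldni had at most 7 reads in any control library and met the filter on low counts through the mutants alone. The skeletal muscle list was at 275 to 930 against 1506 to 5029, with 6 of 12 higher, and the myeloid list at 1142 to 1319 against 5440 to 7057, with 12 of 14 higher. In the muscle list TNNT3, TTN, ACTA1 and CASQ1 each name 2 IDs. In the myeloid list MFAP4 names 8 of the 18 IDs and MPEG1 names 3. The counts of both lists are therefore of IDs and not of separate markers. In the controls CASQ1 ENSDARG00000018105 had 15, 9 and 8 reads, CASQ1 ENSDARG00000038716 had 26, 6 and 36, and MFAP4 ENSDARG00000038683 had 19, 13 and 7. These IDs were called higher and met the filter on low counts with the help of mutant libraries. MFAP4 ENSDARG00000090783 alone was at a mean of 355 CPM in the controls and 2027.5 CPM in the mutants. The endothelial list was at 83.0 to 151 against 404 to 462 (4 of 6 higher) and the neural list at 4.82 to 17.4 against 37.0 to 66.4 (2 of 5 higher). No gene of these lists was called lower by edgeR, DESeq2 or limma-voom or was lower at an unadjusted p under 0.05, and none was at 0 reads over the controls. The blood progenitor list was lower, at 347 to 512 against 1933 to 2119, with 3 of 6 tested genes lower. In RNA of a sorted pool, a change in the share of a cell type and a change of RNA within a cell cannot be told apart, and the part of these cell types in the glycolysis differences was not tested.

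**Figure D5:**
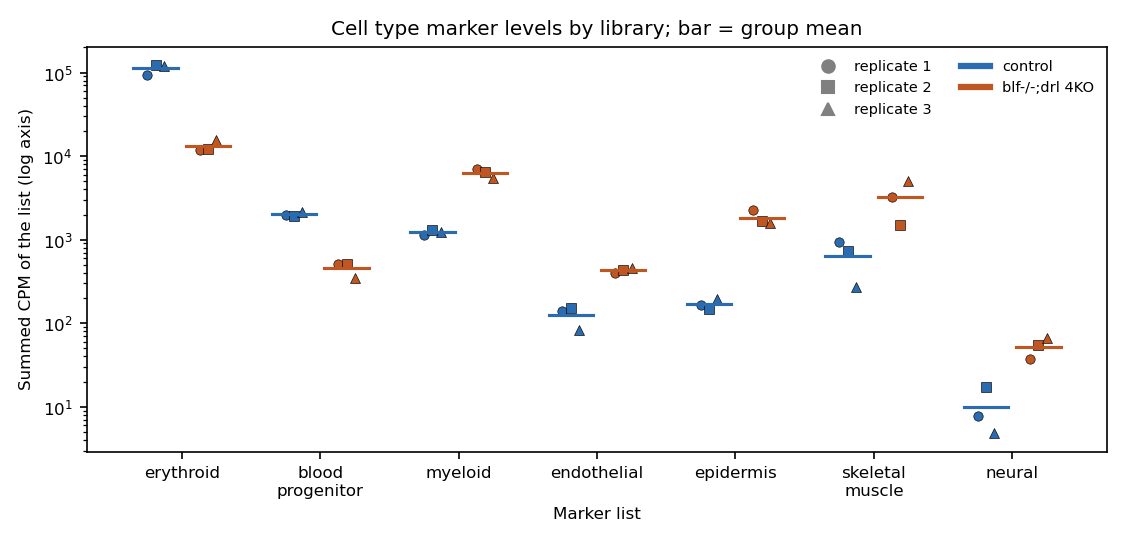
Summed CPM (log axis) of each cell type marker list in every library, with a bar at the group mean. The erythroid and blood progenitor lists are lower in all 3 mutant libraries, and the other 5 lists are higher in all 3.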

How the data were processed

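Each library has 1 deposited file of raw counts, listed by Ensembl gene ID. The submitters' processing notes name these programs of the authors: featureCounts 1.6.0, HISAT2 2.2.1, SAMtools 1.10, FastQC 0.11.9 and bcl2fastq. The build named is GRCz11. The sources used here do not give the strand setting, the annotation release or the rule for reads that fit several genes. A name table gave symbols to 29201 of the 32520 IDs (89.8%). No pair of replicates agreed within sampling noise (chi-square at least 38.1 times its degrees of freedom).

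The counts were fitted with edgeR 4.0.16 (R 4.3.3): filterByExpr, scaling by TMM, robust dispersions, and quasi-likelihood tests of mutant minus control without covariates. Benjamini-Hochberg adjustment ran over the 14517 genes left. The SE is the log2 fold change divided by the square root of F. The same script was also run on simulated counts with known changes, with the outcome not given here. DESeq2 1.42.0 and limma-voom (limma 3.58.1) were alternatives, with other scalings, filters, a replicate block and each library left out in turn. The intervals pool the reads of the 3 libraries of a group and leave out the spread between libraries. They therefore cover counting error only. No molecular identifiers were used here.

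The members and lists were chosen with earlier results of these data known. Named genes are the members, up to 5 of smallest p from each pathway list, a few rate-limiting or red cell genes, and the 4 nearest profiles of each pyruvate kinase. Where the rule gave pkma 2 IDs, the first in ID order was used for the ratio. The values of 1 gene of the pathway lists are not reported here.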

Additional observations from a re-analysis of the deposited data

How the results depend on the processing

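The members called higher numbered 8 in the reported fit, 7 to 9 under the other scalings, tools, filters and the replicate block (7 with the block), and 5 to 7 with single libraries left out. Over all genes, 1887 were higher (13.0% of those tested) and 1440 lower (9.92%). With single libraries left out 1342 to 1551 were higher and 868 to 1220 lower. For these runs a share is given only without control replicate 2 (8.32% higher). Lower calls numbered 959 with library totals, and the block gave 1651 higher and 1277 lower. Genes of the pathway lists numbered 28 higher and 3 lower, with the numbers tested given list by list above. With single libraries left out 17 to 22 were higher and 2 to 4 lower, while calls over all genes fell as well. DESeq2 called 6 lower, beside 14.3% of all its genes. The ratio of PKLR to PKM changed sign to -0.32 with 5 added to each count and ranged from -0.025 to 2.2 with single libraries left out; paired by replicate number it was 0.79 (exact sign-flip p = 0.5).

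Signs also changed for genes that did not pass. PFKP ENSDARG00000012801 was at 0.23 with library totals, 0.10 with no filter, 0.80 without control replicate 2 and 0.47 without mutant replicate 2, in a range of -0.84 to 0.80 over the single libraries left out. tigarb was at -0.11 with limma-voom and -0.32 without mutant replicate 3, in a range up to 1.54. G6PC1 ENSDARG00000013721 was at -0.046 without mutant replicate 3, in a range up to 1.12. The cause was not tested. Library totals moved the median log2 fold change of all genes from 0.11 to 0.42, so their larger rises are relative to that shift.

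Same-numbered libraries did not deviate together (correlations of 0.00, -0.04 and 0.00), so no effect shared by number was seen. Whether they were prepared together is not settled by the labels. Of the calls of genes named in the report, the block ended those of ENO1 ENSDARG00000022456 (adjusted p = 0.0567), slc2a11b (0.112), TALDO1 (0.0683) and FH ENSDARG00000109774 (0.0827) and no other. Leaving out 1 library leaves its group with 2. PKLR, ENO1 and PKM ENSDARG00000099860 are limited by reads in the controls.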
